A study of Mus musculus with 36 samples.

Results

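The subject is a set of 229 array probes whose signal was high in fibroblasts under doxycycline-induced reprogramming on days 1, 3 and 6, above the level in embryonic stem (ES) cells as well as in primary mouse embryonic fibroblasts (MEFs). They were chosen from the 25030 probes of the series' deposited table of log10 sample signals. ES and induced pluripotent stem (iPS) arrays had to average within 0.6 log10 units of untreated primary MEFs. The secondary MEFs given doxycycline without tamoxifen had to lie at least 0.6 above the same day's uninduced cells (3.98-fold), and at least 0.3 (2-fold) above both the pluripotent and the primary MEF mean, on all 3 days. The arrays without tamoxifen and the iPS and ES arrays therefore picked the probes, and their values are given as a description only. Tests are reported for the 16 arrays labelled with tamoxifen, which the rule did not use, and for iPS against ES cells, of which the rule used only the common mean.

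The 36 2-colour arrays made up 18 groups, each with 2 arrays. Secondary MEFs, described as second-generation MEFs carrying KOS-ZERT2 on a C57Bl/6 x 129 hybrid background, were sampled on days 1, 3 and 6 as Dox+Tmx+, Dox-Tmx+, Dox+Tmx- and Dox-Tmx- cells, with 1.5 ug/ml doxycycline and 200 nM tamoxifen, all in ES medium with LIF. The other groups were iPS(KOS-ZERT2) cells of 1 clone and v6.5 ES cells, both in ES medium with LIF, then Zscan4ERT2 MEFs and wild MEFs, each labelled Tmx+ and Tmx-, all from F1 hybrids of V6.5 and in MEF medium. KOS is the usual short name for the transcription factors Klf4, Oct4 and Sox2, and ZERT2 for the 2-cell-stage protein Zscan4 fused to a receptor domain that tamoxifen compounds activate. Every doxycycline-treated culture carried KOS-ZERT2, so the drug and the transgenes it switches on cannot be told apart. The protocols of the wild Tmx+ MEFs, and of replicate 2 of the day 1 Dox-Tmx+ cells, mention no tamoxifen. The labels name no separate cultures for the 2 arrays of a group, so p-values measure only the spread between arrays, which may be technical.

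When reprogramming factors are switched on in fibroblasts, fibroblast genes are silenced early and the network of pluripotent cells is set up late. In between, the factors also bind and activate genes of other lineages, and transcripts that neither fibroblasts nor ES cells hold at a high level can appear in the cells on the way. The rule asks for a higher signal under doxycycline than in both cell types, and sets no upper limit on the level in either. The probes carry no gene symbol, description or position in the files. They are therefore called by their array identifiers, and no gene function can be given.

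The 60-base probes of 4 of them are shown because the results turn on them. Z00074466-1 and Z00036745-1 had the highest mean doxycycline difference in the arrays with tamoxifen, Z00027747-1 rose most and Z00013827-1 fell most between days 1 and 6 in cells given both drugs. Capitals mark ATTAAA or AATAAA, the hexamers of the polyadenylation signal.
Z00074466-1: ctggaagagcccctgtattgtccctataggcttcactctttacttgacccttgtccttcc
Z00036745-1: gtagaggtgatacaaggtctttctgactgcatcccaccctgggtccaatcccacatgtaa
Z00027747-1: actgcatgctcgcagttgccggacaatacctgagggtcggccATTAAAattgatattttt
Z00013827-1: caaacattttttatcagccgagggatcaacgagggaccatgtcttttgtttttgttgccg

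One pair of probes among the 229 shared sequence. Z00026043-1 and Z00026084-1 began with the same 28 bases, in capitals, and matched at 54 of 60 positions, so each may also read the other's transcript.
Z00026043-1: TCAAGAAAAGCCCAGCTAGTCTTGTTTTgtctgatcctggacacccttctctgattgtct
Z00026084-1: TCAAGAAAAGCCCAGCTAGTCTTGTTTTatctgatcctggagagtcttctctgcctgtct

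Base composition and short motifs were counted for all probes of the table. The 229 probes had a median GC content of 45% (quartiles 38.3% and 46.7%), against 43.3% (36.7% and 48.3%) for all 25030 probes of the table. AATAAA or ATTAAA, on the probe strand only, occurred in 24 of the 229 (10.5%), against 11.1% of the table. The element ATTTA, known from unstable messages, occurred in 12 (5.24%), against 7.73%.

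Each array measured 54.9% to 77.1% of all probes well above background in the sample channel, and precision is limited by the number of arrays. Scans fell on 5 days and used 11 slides. For each day of the time course the Dox+ arrays lay on other slides than the Dox- arrays, so the effects of a slide and of doxycycline on 1 day cannot be told apart. Each day also had its own slides, so slide and day cannot be told apart in any comparison between days. Within a day, Tmx+ and Tmx- arrays of 1 doxycycline state shared slides. The arrays used for the tests thus shared slides with arrays that the rule used. In these bulk samples more cells of a type and more RNA per cell cannot be told apart.

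In the deposited table the median log10 signal of the 229 probes in Dox+Tmx+ cells stood at 2.76, 2.97 and 2.93 on days 1, 3 and 6. In Dox-Tmx+ cells it was 1.60, 1.56 and 1.53. The rule's own arrays gave 2.72, 2.96 and 2.88 in Dox+Tmx- cells, and 1.57, 1.55 and 1.55 in Dox-Tmx- cells. The medians were 1.65 in iPS cells, 1.69 in ES cells, 1.62 in Zscan4ERT2 MEFs Tmx+, 1.69 in wild MEFs Tmx+, 1.61 in Zscan4ERT2 MEFs Tmx- and 1.65 in wild MEFs Tmx-. All probes of the table had medians between 2.38 and 2.45 in every group. The set therefore sat below the typical probe in each of the 12 groups without doxycycline and above it in each of the 6 with it.

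**Figure D1:**
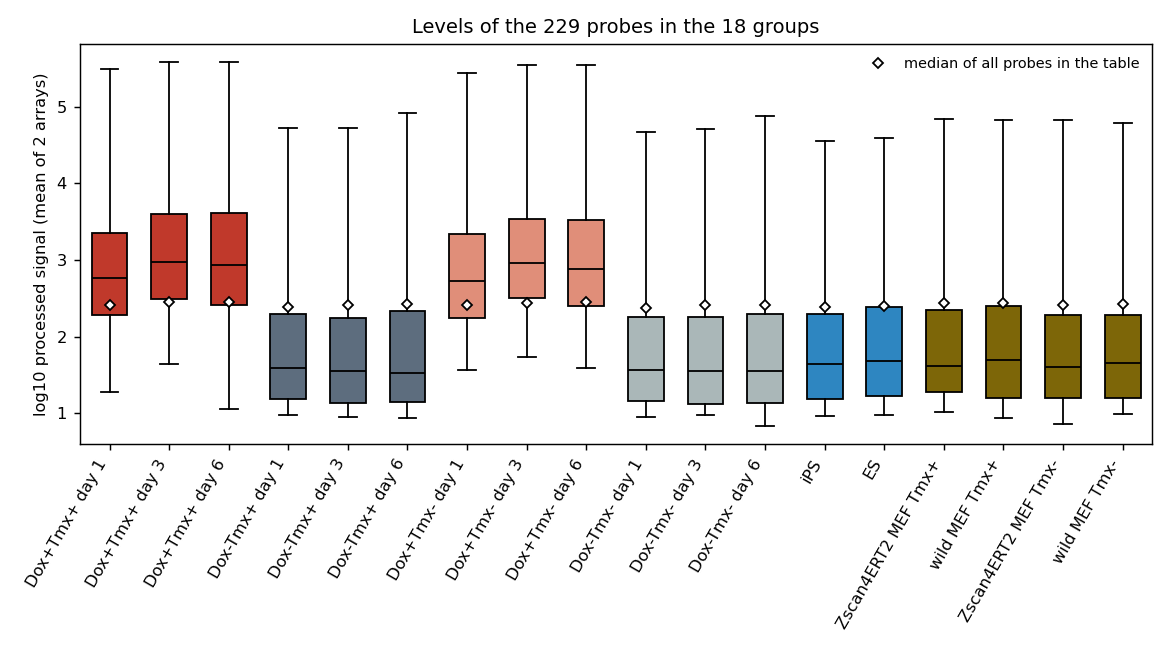
Log10 processed sample signal (mean of 2 arrays) of the 229 probes in the 18 groups; boxes span the quartiles, whiskers the whole range, and diamonds give the median of all 25030 probes. The 6 doxycycline groups have medians between 2.72 and 2.97, the other 12 between 1.53 and 1.69.

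Within the set the levels were wide. In Dox+Tmx+ cells of day 3 they ran between 1.64 and 5.58 log10 units, with quartiles at 2.49 and 3.60, against 0.95 to 4.73 with quartiles at 1.13 and 2.25 in Dox-Tmx+ cells of that day. On both arrays of a Dox+Tmx+ group 226 to 228 probes were well above background (66.2% to 73.9% of the table's probes). All 229 were in each Dox+Tmx- group, which the rule picked for high values. In the Dox- groups 112 to 126 were (68.9% to 72.4%), in iPS cells 110 (66.3%) and in ES cells 126 (69.6%). In the 4 primary MEF groups 76 to 102 were (58.1% to 63.2%). Over the 12 iPS, ES and primary MEF arrays together, 61 probes were above background on none and 71 on all. Some of the set was thus below detection throughout these cells, and a similar number of probes was measured in all of them. Among the deposited log10 signals, 48 probes held 1 exact value on 5 or more arrays, so that these values have no order among themselves. The number of these probes at that value on both arrays of a group was 0 or 1 in each Dox+ group and 21 to 33 in each Dox- group. It was 35 in iPS cells, 24 in ES cells and 34 in wild MEFs Tmx+, but 0 or 1 in each other primary MEF group.

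The members nearest to the thresholds show how the set is bounded. Z00022741-1 entered with a margin of 0.002 over the day 1 condition and Z00026951-1 with 0.003 inside the window between pluripotent cells and MEFs. Z00077551-1 missed the day 1 condition by 0.001 and Z00024765-1 missed the window by 0.002. A total of 20573 probes lay in the window, 410 of these passed the doxycycline condition of day 1, 340 also that of day 3, 278 all days, and 229 the margins over ES cells and MEFs. With other thresholds the set held 173 to 282 probes. On the scanner files' own processed signal it held 334, of which 212 were shared.

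The first comparison asked whether doxycycline gave the same rise in cells that also received tamoxifen, on arrays the rule did not use. Nearly the whole set was higher. The margin of 0.6 log10 units over Dox-Tmx+ cells was met by 215 of 229 probes on day 1 (93.9%, against 2.78% of all probes of the table), by 226 on day 3 (98.7%, against 5.84%) and by 223 on day 6 (97.4%, against 5.49%). All 3 days were met by 207 probes (90.4%, against 1.95%). In addition all 3 margins over the Tmx+ primary MEFs were met by 206 (90%, against 1.77%).

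In limma's fit of background-corrected log2 ratios of sample over reference, Dox+Tmx+ cells were called higher than Dox-Tmx+ cells at 228 of the 229 probes on day 1, where 25.5% of the 20183 tested probes of the table were called higher. The count was 229 for day 3 (36.2% of the table) and 228 for day 6 (33.2%). No probe of the set was called lower on any day, where 23.5%, 28.6% and 29.8% of the table were lower on days 1, 3 and 6. The median log2 difference of the set was 2.13, 2.95 and 2.74 on days 1, 3 and 6, against -0.01, 0.02 and 0.01 for the table. The size depends on the processing: the set's medians were 3.45, 4.12 and 3.83 on Feature Extraction's own ratio, to which no offset was added here, and 3.17, 4.02 and 3.69 on the deposited table. Of the 229, 227 were called higher on all 3 days (15.9% of the table), and at least a 2-fold difference was seen at 181, 213 and 203 probes (5.36%, 10.5% and 9.3% of the table). On Feature Extraction's ratio all 229 differed by at least 2-fold on each day (9.26%, 14.9% and 13.7% of the table). On the deposited values 227, 229 and 227 did (6.81%, 11.6% and 10.7% of all 25030 probes). Averaged over days all 229 were called (38%), and all 229 stayed so with slide as a random block (21.4%).

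**Figure D2:**
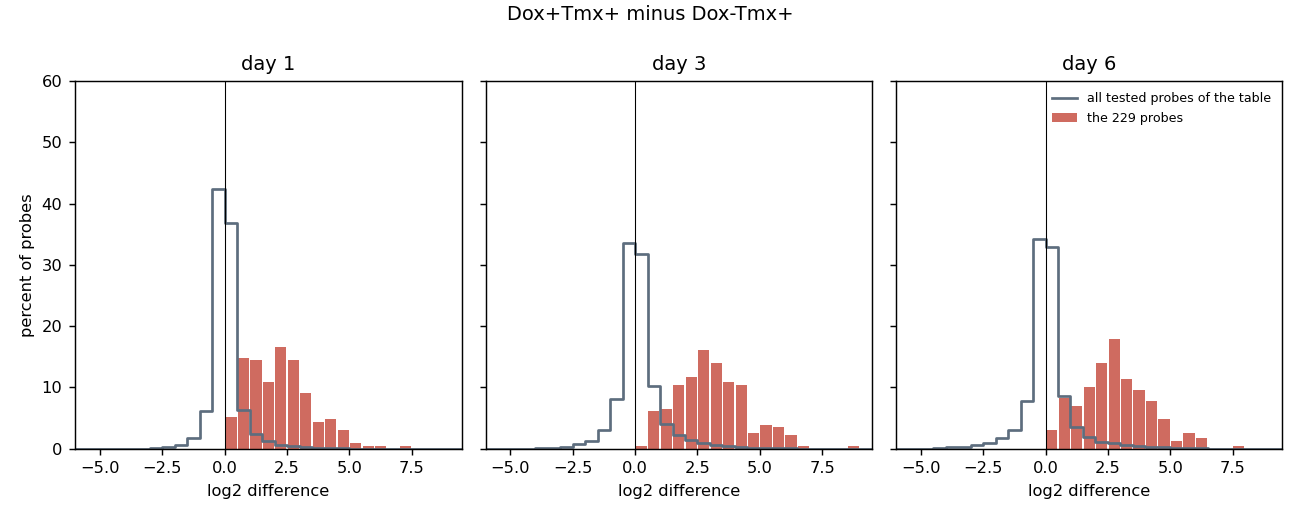
Percent of probes (y) by log2 difference of Dox+Tmx+ minus Dox-Tmx+ cells (x, bins of 0.5) on days 1, 3 and 6, for the 229 probes (bars) and the 20183 tested probes of the table (line). The set's medians are 2.13, 2.95 and 2.74, those of the table close to 0; a few table probes below -6 lie outside the axis.

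Z00074466-1 gave the largest log2 differences of the set in this fit. Its log2 ratios in Dox+Tmx+ cells were 4.18 and 4.15 on day 1, 5.28 and 5.25 on day 3, then 4.92 and 5.13 on day 6, against -2.96 and -2.75, -3.17 and -3.32, and -3.00 and -2.80 in Dox-Tmx+ cells of the same days. All 6 arrays with doxycycline lay above the reference and all 6 without it far below. The differences were 7.02, 8.51 and 7.93 (SE 0.099 each; limma adjusted p = 3e-25, 2.03e-27 and 7.12e-27). Z00036745-1 had ratios of 3.95 and 3.92, 4.57 and 4.55, and 4.68 and 4.78 in Dox+Tmx+ cells on days 1, 3 and 6, against -2.15 and -2.13, -1.77 and -1.72, and -1.51 and -1.40 in Dox-Tmx+ cells. The differences of 6.08, 6.30 and 6.19 (SE 0.0521 each) were nearly level over the days, with induced and uninduced cells both moving up.

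At the low end, Z00024396-1 averaged a difference of 0.37 (SE 0.039, limma adjusted p = 5.87e-09) and Z00031846-1 one of 0.47 (SE 0.0545, adjusted p = 3.69e-08). On Feature Extraction's ratio no probe of the set averaged under 2.03, and on the deposited table none under 1.64. Neither was above background on both arrays of any Dox-Tmx+ group. Z00031846-1 had ratios of 0.46 and 0.37 in Dox+Tmx+ cells on day 1, against 0.11 and 0.29 in Dox-Tmx+ cells, and that difference of 0.21 was not called (adjusted p = 0.073). The groups did not overlap. Z00024687-1, named after its values were seen as the 1 probe not called on day 6, had ratios of 0.65 and 0.73 on day 1, 1.37 and 1.42 on day 3, then 0.28 and 0.06 on day 6 in Dox+Tmx+ cells, against -0.10 and 0.00, -0.02 and -0.19, and 0.03 and 0.16 in Dox-Tmx+ cells. Its day 6 difference was 0.07 (SE 0.092, adjusted p = 0.511) and the arrays overlapped. On the rule's own day 6 arrays it had 0.69 and 0.36 in Dox+Tmx- cells, against -0.02 and -0.11 in Dox-Tmx- cells.

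For many of the probes the uninduced level is a limit of detection, so the size of the rise is only bounded. In Dox-Tmx+ cells 89, 85 and 84 probes on days 1, 3 and 6 were not above background on either array. For these the doxycycline group was set against the dimmest sample signal that counted as measured, and where the fold of the mean log2 ratios was lower, that fold was taken. The rise was then at least 2.04-fold, 4.43-fold and 2.96-fold in the median of these probes on the 3 days. With these probes at their bounds the set's median log2 difference was 2.13, 2.90 and 2.70. Z00053752-1, for example, had ratios of 6.72 and 6.68 in Dox+Tmx+ cells on day 3, against -0.03 and -0.10 in Dox-Tmx+ cells with no array above background, a rise of at least 109-fold.

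Across the 229 probes the doxycycline differences of the days went together, with Pearson's r of 0.79 between days 1 and 3, 0.71 between days 1 and 6 and 0.90 between days 3 and 6. The points share each probe's brightness and reference level, and genes are not independent replicates.

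The second comparison set Dox+Tmx+ cells against the mean of the Zscan4ERT2 and wild MEFs labelled Tmx+. The medium differed too, ES medium with LIF against MEF medium, as did the scan days. On each of days 1, 3 and 6, 228 of the 229 probes were called higher (33.3%, 38% and 35.3% of the table), where on day 1 the other probe was lower (37.2% of the table), with median log2 differences of 1.88, 2.78 and 2.64 against -0.02, 0.01 and 0.00 in the table. These medians were 3.25, 3.87 and 3.62 on Feature Extraction's ratio and 3.15, 3.77 and 3.58 on the deposited values. In both primary MEF groups 104 probes were not above background on any Tmx+ array. With these at their bounds the medians were 1.82, 2.63 and 2.51.

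Z00034575-1 had the largest difference on day 1. Its ratios were 5.90 and 6.04 in Dox+Tmx+ cells, against 0.05 and 0.31 in Zscan4ERT2 MEFs and -0.21 and -0.34 in wild MEFs, a difference of 6.02 (SE 0.0774, limma adjusted p = 2.47e-26). The uninduced secondary MEFs stood in between, and Dox-Tmx+ cells had 2.47 and 2.57 on day 1, 0.60 and 0.56 on day 3, then 1.57 and 1.69 on day 6. Z00022919-1 had 3.90 and 3.87 in Dox+Tmx+ cells on day 1, against -1.81 and -1.61 in Zscan4ERT2 MEFs and -1.64 and -1.67 in wild MEFs (difference 5.57, SE 0.0561, adjusted p = 4.28e-28). On day 3 Z00053752-1 was at least 96.5-fold higher than the primary MEFs and Z00074466-1 differed by 6.34 (SE 0.0857, adjusted p = 1.93e-26). On day 6 Z00070229-1 was at least 42-fold and Z00053752-1 at least 76.3-fold higher, with limma adjusted p = 2.04e-24 and 9.49e-28.

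The exception was Z00033363-1 on day 1. It had ratios of -1.92 and -1.86 in Dox+Tmx+ cells, against -1.68 and -1.53 in Zscan4ERT2 MEFs, where no array was above background, and -1.28 and -1.58 in wild MEFs. The difference was -0.37 (SE 0.0682, adjusted p = 3.25e-05), but the direction turned to 0.67 both on Feature Extraction's own ratio (adjusted p = 0.0882) and on the deposited table (adjusted p = 0.00387), so its sign depends on the processing. On day 3 the difference was 0.10 (adjusted p = 0.202) and on day 6 0.83 (adjusted p = 9.09e-11). The probe not called on day 6 was Z00024687-1, at 0.08 (adjusted p = 0.39).

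A further question was how the set moved with time while both drugs were present. More of it rose than fell between days 1 and 3, and more fell than rose between days 3 and 6. Between days 1 and 3, 190 probes rose and 15 fell (31.9% and 21.8% of the table were called), with a median log2 difference of 0.66 against 0.03 in the table. Between days 3 and 6, 55 rose and 87 fell (20.3% and 25.1%), with a median of -0.10 against -0.02. Over the whole span, day 6 against day 1, 156 rose and 35 fell (32.9% and 28%), with a median of 0.59 against 0.01. The day 1 arrays were scanned on another day than those of days 3 and 6, and the part of the scan day in these differences was not tested. The Dox+Tmx+ arrays of each day lay on a different slide, shared only with that day's Dox+Tmx- arrays. Slide and day therefore cannot be told apart in any of the 3 comparisons. On Feature Extraction's own ratio fewer of the set were called. Between days 1 and 3, 105 rose and 7 fell (45.9% and 3.06%, against 25.5% and 27.7% of the table). Between days 3 and 6, 24 rose and 44 fell (10.5% and 19.2%, against 19.8% and 20.8%), so that neither share exceeded that of the table. For day 6 against day 1, 87 rose and 22 fell (38% and 9.61%, against 28.7% and 30.6%).

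By their calls, 48 probes rose in both intervals (21%, against 9.47% of the table), 75 rose and then fell (32.8%, against 10.7%), and 67 rose with no call after day 3 (29.3%, against 11.7%). Of the others 5 fell in both intervals (2.18%, against 6.93% of the table) and 8 fell with no later call (3.49%, against 10.9%). A further 2 fell and then rose (0.873%, against 3.99%), 5 rose late only (2.18%, against 6.83%) and 7 fell late only (3.06%, against 7.42%). At 12 there was no call in either interval (5.24%, against 32%). On Feature Extraction's ratio 15 rose in both intervals (6.55%, against 7.28% of the table), 30 rose and then fell (13.1%, against 7.13%), 60 rose with no later call (26.2%, against 11.1%) and 98 had no call in either (42.8%, against 33.8%). In the deposited table the highest of the 3 days was day 1 for 29, day 3 for 112 and day 6 for 88 probes in Dox+Tmx+ cells. On the rule's own Dox+Tmx- arrays these counts were 29, 136 and 64.

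**Figure D3:**
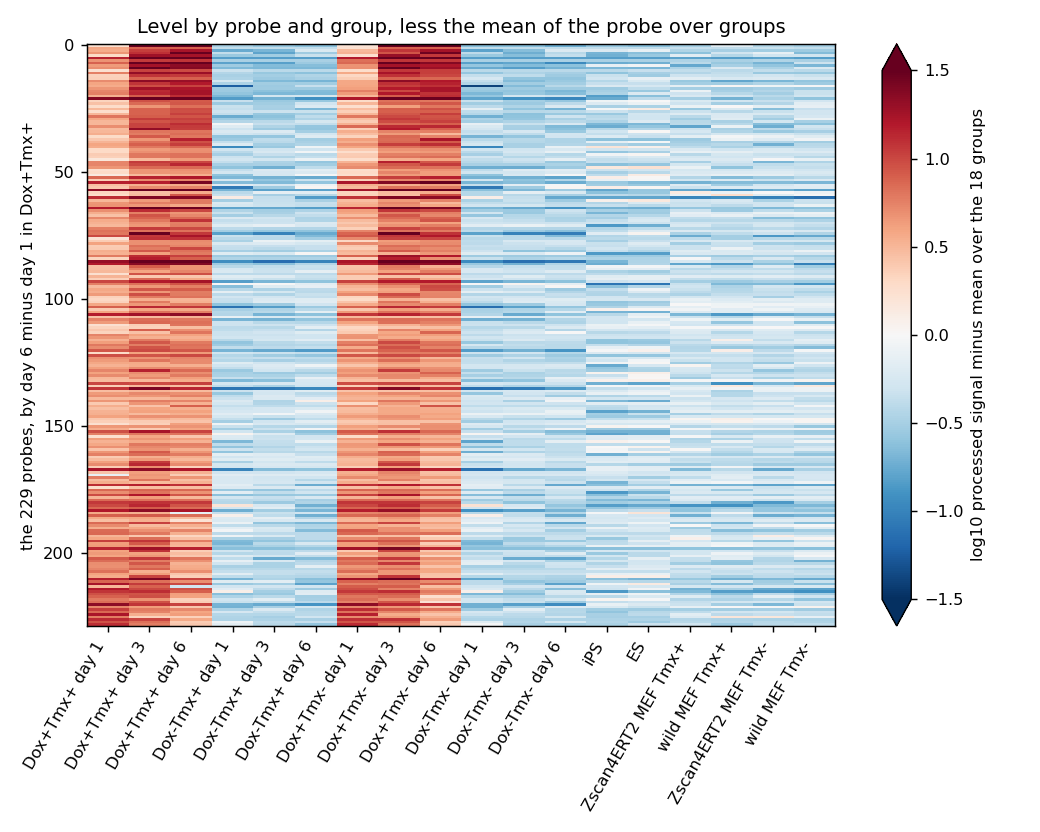
Log10 processed sample signal less each probe's mean over the 18 groups (colour), for the 229 probes (rows) ordered by the day 6 minus day 1 difference in Dox+Tmx+ cells and the 18 groups (columns). The 6 doxycycline columns are the high ones; probes at the top are weaker on day 1 than on days 3 and 6, and probes at the bottom are strongest on day 1.

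Late probes were led by Z00027747-1. Its ratios in Dox+Tmx+ cells were -0.27 and -0.08 on day 1, 3.62 and 3.44 on day 3, then 3.39 and 3.39 on day 6. Day 6 exceeded day 1 by 3.56 (SE 0.0895, limma adjusted p = 1.89e-20), and the rise was complete by day 3 (3.70, adjusted p = 1.88e-20). The uninduced Dox-Tmx+ cells stayed between -0.93 and -0.73 on all days with no array above background, so the rise over them was at least 1.4-fold on day 1, 20.2-fold on day 3 and 18.8-fold on day 6. Z00076148-1 had 0.88 and 0.72, 3.70 and 3.73, and 4.07 and 4.09 on the 3 days (day 6 minus day 1 3.28, SE 0.0763, adjusted p = 4.49e-21). On Feature Extraction's ratio that difference was 0.73 (adjusted p = 0.0945). Z00022163-1 rose by day 3 to 5.46 and 5.06, against 2.01 and 2.04 on day 1 (3.24, SE 0.085, adjusted p = 8.72e-20).

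Early probes were led by Z00013827-1. In Dox+Tmx+ cells it had 3.59 and 3.68 on day 1, 1.70 and 1.65 on day 3, then 0.80 and 0.92 on day 6. Both intervals thus went down, and day 6 fell by 2.77 against day 1 on the log2 scale (SE 0.0704, adjusted p = 9.28e-20). Even so it remained at least 1.8-fold above Dox-Tmx+ cells on day 6, where neither array was above background. Z00043913-1 had 2.29 and 2.30, 1.89 and 1.92, and 0.56 and 0.59 (day 6 fell by 1.71, SE 0.0813, adjusted p = 4.5e-15). Z00030235-1 had 3.22 and 3.04 on day 1, against 1.61 and 1.57 on day 3, then 1.77 and 1.77 on day 6, so that its fall was over by day 3.

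Between days 3 and 6 the largest moves were at other probes. Z00043790-1 had 2.98 and 2.84 on day 6, against 1.34 and 1.47 on day 3 (1.50, SE 0.0851, adjusted p = 8.11e-13), after 0.10 and 0.11 on day 1. Z00040056-1 had 2.71 and 2.41, against 1.47 and 1.37 (1.14, SE 0.0995, adjusted p = 1.51e-09). Z00050064-1 peaked on day 3, with 0.71 and 0.82 on day 1, 3.86 and 3.73 on day 3, then 1.71 and 1.78 on day 6 (day 6 fell by 2.05 against day 3, adjusted p = 4.83e-15). Z00033785-1 peaked on the same day, with 4.80 and 4.76, 6.04 and 6.17, and 4.25 and 4.39 (day 6 fell by 1.79, adjusted p = 1.09e-13). In each of these probes the arrays of different days did not overlap.

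**Figure D4:**
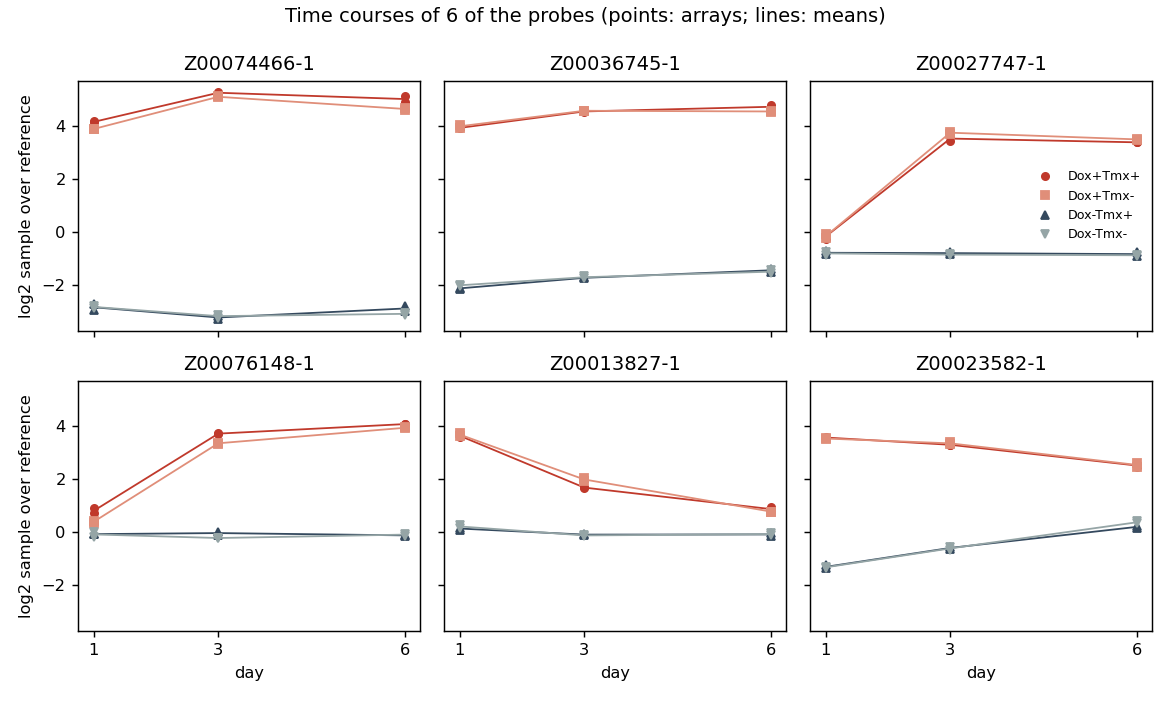
Log2 ratio of sample over reference (y) by day (x) for 6 of the probes in the 4 drug states of secondary MEFs; points are arrays and lines join means of 2. On this scale Z00027747-1 and Z00076148-1 lie less far above the uninduced cells on day 1 than from day 3. For Z00076148-1 this depends on the processing. On Feature Extraction's ratio its day 6 minus day 1 difference in Dox+Tmx+ cells was 0.73 and not called. Z00013827-1 declines to 0.80 and 0.92 in Dox+Tmx+ cells on day 6, and in Z00023582-1 the uninduced cells rise.

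The uninduced cells moved far less as a set. In Dox-Tmx+ cells, day 6 against day 1, 51 probes rose and 32 fell (31% and 26.5% of the table), with a median of 0.01 in the set and in the table alike, and 74 probes were below background on both days. With the deposited log10 signals, 52 fell (22.7%, against 24% of the table). Z00073873-1 was the largest exception. Its ratios were -4.07 and -4.03 on day 1, -2.54 and -2.48 on day 3, then -0.67 and -0.73 on day 6 in uninduced Dox-Tmx+ cells, a rise of 3.35 (SE 0.0467, adjusted p = 4.47e-24). Dox+Tmx+ cells had 0.55 and 0.59, 1.71 and 1.71, and 1.85 and 1.75, so that both states moved up. Z00023582-1 rose in the uninduced cells as well, to 0.15 and 0.22 on day 6, against -1.27 and -1.38 on day 1 (1.51, SE 0.0593, adjusted p = 1.66e-16). Z00022769-1 went the other way, with -2.75 and -3.04 on day 6, against -0.94 and -0.81 on day 1 (fell by 2.01, adjusted p = 8.77e-16), and Z00022919-1 had -2.10 and -1.89, against -0.41 and -0.38 (fell by 1.60, adjusted p = 3.23e-16).

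The change of the doxycycline difference itself between days 1 and 6 was tested as an interaction. It was larger on day 6 at 137 probes and smaller at 40 (25.7% and 24% of the table), with a median of 0.50 against 0.01. Z00027747-1 (3.61, SE 0.127, limma adjusted p = 2.75e-17) and Z00076148-1 (3.33, SE 0.108, adjusted p = 6.85e-18) gained most, and Z00023582-1 (-2.57, SE 0.0838, adjusted p = 7.38e-18) and Z00013827-1 (-2.55, SE 0.0995, adjusted p = 6.02e-16) lost most. In Z00023582-1 the induced cells had 2.57 and 2.45 on day 6 and 3.55 and 3.59 on day 1 while the uninduced cells rose. On Feature Extraction's ratio 67 probes gained and 34 lost (29.3% and 14.8%, against 22.4% and 23.6% of the table), and the values of Z00076148-1 (0.64, adjusted p = 0.349) and Z00013827-1 (-0.33, adjusted p = 0.649) were not called. On the deposited table Z00013827-1 was at -0.92 (adjusted p = 0.194).

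The rule put iPS and ES cells together, so their difference was free to vary. The median difference was small, at -0.05 against 0.00 in the table, and 79 probes were below background in both. In iPS cells 3 probes were higher than in ES cells (1.31%, against 3.15% of the table) and 34 lower (14.8%, against 6.5%). The share called lower was 15.3% on Feature Extraction's ratio (6.4% of the table) and 17.9% on the deposited values (6.83%). The groups lay on 1 slide. Z00020778-1 had ratios of 0.44 and 0.40 in iPS cells, against 1.59 and 1.32 in ES cells (-1.03, SE 0.102, adjusted p = 1.26e-07), and Z00046555-1 had 0.21 and 0.22, against 1.01 and 1.06 (-0.82, SE 0.0872, adjusted p = 4.09e-07). Z00023582-1 was higher, with 0.09 and 0.04 in iPS cells, against -0.26 and -0.27 in ES cells (0.33, adjusted p = 0.000456). Without ES replicate 2 the number lower was 21 (722 of the table), and without iPS replicate 2 it was 22 (756 of the table). Without iPS replicate 1 only 1 probe was higher (312 of the table). With all arrays 1312 of the table were lower and 636 higher. With outlying local backgrounds kept, 14 were lower (701 of the table's 20183 tested probes).

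Of the Tmx+ primary MEFs, Zscan4ERT2 MEFs were higher than wild MEFs at 18 probes and lower at 14 (10% and 11.3% of the table), with a median of -0.02 against -0.01. The arrays of either group had their own slide and scan day, so slide and genotype cannot be told apart. The protocol gives 200 nM tamoxifen for the Zscan4ERT2 MEFs and mentions none for the wild MEFs. A difference in tamoxifen thus cannot be told apart from genotype either. Z00006634-1 had -0.03 and 0.22 in Zscan4ERT2 MEFs, against -1.01 and -1.06 in wild MEFs (1.13, SE 0.0697, adjusted p = 2.27e-11), and Z00009932-1 had 2.13 and 2.10, against 1.39 and 1.24 (0.79, adjusted p = 2.11e-08). Z00075454-1 had 0.40 and 0.60, against 1.83 and 1.69 (-1.26, SE 0.113, adjusted p = 1.31e-08). Z00038297-1 had 0.36 and 0.23, against 1.00 and 1.08 (-0.75, adjusted p = 2.25e-06), a call lost when outlying local backgrounds were kept (-0.31, adjusted p = 0.312). The counts moved to 36 and 28 on Feature Extraction's ratio (15.7% and 12.2%, against 12.6% and 13.1% of the table). On the deposited values they were 43 and 38 (18.8% and 16.6%, against 17.9% and 13.8%). With outlying backgrounds kept they were 11 and 33, where 2446 and 2526 of the table's 20183 tested probes were called. Without Zscan4ERT2 MEF Tmx+ replicate 2, 10 were higher (1595 of the table, against 2021 with all arrays).

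The effect of tamoxifen, the question behind the Zscan4 design, can only be described here, because the Dox+Tmx- arrays were picked for high values of these probes and the Dox-Tmx- arrays for low ones. In Dox+Tmx+ against Dox+Tmx- cells the set had a median log2 difference of 0.04, 0.01 and 0.14 on days 1, 3 and 6, against 0.00, 0.01 and 0.01 in the table. It was positive at 140, 120 and 176 of the 229 probes (50.4%, 52.6% and 53% of the table). On day 6 both Dox+Tmx+ arrays lay above both Dox+Tmx- arrays at 139 probes (27.6% of the table) and below at 29 (21.6%). On day 1 this was 84 and 49 (19.3% and 18.3%) and on day 3 83 and 71 (31.3% and 26.1%). Without doxycycline the medians, Dox-Tmx+ against Dox-Tmx-, were 0.00, 0.00 and 0.04, against 0.00, 0.00 and 0.02 in the table.

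**Figure D5:**
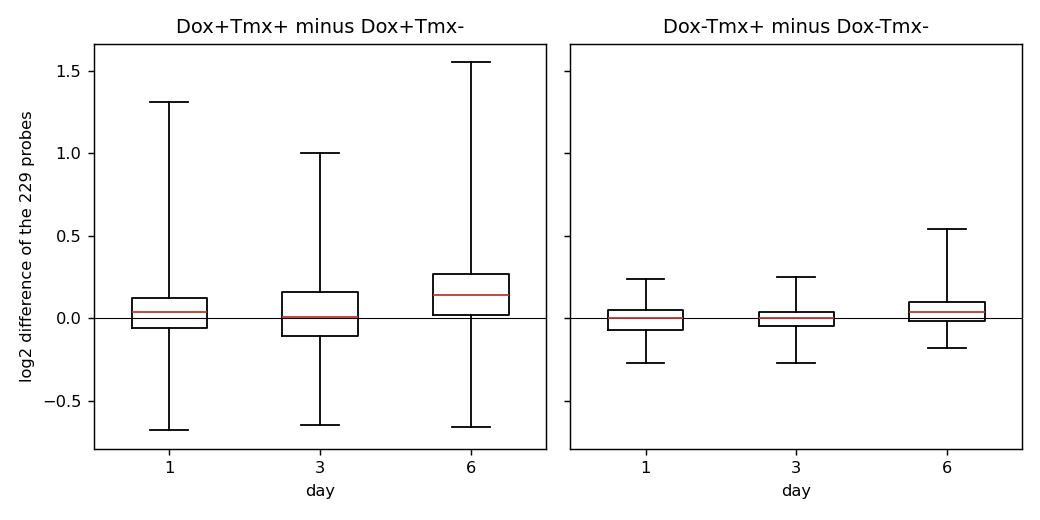
Log2 difference (y) of Tmx+ minus Tmx- secondary MEFs with doxycycline (left) and without it (right) on days 1, 3 and 6 for the 229 probes; boxes span the quartiles and whiskers the range. The red medians are 0.04, 0.01 and 0.14 with doxycycline and 0.00, 0.00 and 0.04 without it, and the highest probe on day 6 with doxycycline is at 1.55.

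At 5 probes the day 6 difference was 2-fold or more (0.297% of the table), and none was lower by as much (0.0248% of the table). They are named because of these values. Both members of the pair with shared sequence were among them. Z00026084-1 had 2.83 and 2.86 in Dox+Tmx+ cells, against 1.43 and 1.15 in Dox+Tmx- cells, and Z00026043-1 had 3.01 and 2.90, against 1.62 and 1.54. Their differences were 0.25 and 0.38 on day 1 and 0.70 and 0.49 on day 3 in the same order, and because the probes match over most of their length they may read 1 transcript. Z00070229-1 had 6.29 and 6.01, against 4.88 and 4.81, and was not above background in any Dox- group. Z00026951-1 had 2.43 and 2.37, against 1.37 and 1.39, and Z00048558-1 had 2.62 and 2.35, against 1.50 and 1.46. On day 1 only Z00023304-1 of the set passed 2-fold (0.0248% of the table), with 3.32 and 3.23 in Dox+Tmx+ cells, against 1.94 and 1.99 in Dox+Tmx- cells. In all 6 cases the arrays of the groups did not overlap.

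The common reference was a pool of mouse cell line RNA mixed with ES cell RNA. In the reference channel 99 of the 229 probes (43.2%) were above background on all 36 arrays, against 60.2% of the tested probes of the table, and 9 (3.93%) on none, against 9.93%. By construction the offset of 50, added to both channels before logs were taken, pulls the log ratio of a dim probe toward 0, so a probe chosen for a large difference of log10 signal can have a small difference of log2 ratio.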

How the data were processed

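Per the file headers, the authors quantified spots with Agilent Feature Extraction 9.5.1.1. Of the deposited intensity values those used were each spot's mean and local median background in both channels, not normalized. Per the labels the sample was in Cy3 and the reference in Cy5, with no dye swap. The deposited series table holds log10 values; they correlated at 0.989 to 0.996 with log10 of the processed sample signal, and the adjustment made to them is not given in the sources used here. The rule was applied to them.

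For the tests, local backgrounds marked as outliers were replaced by the array median, background was corrected with limma's normexp (offset 50), and ratios were loess-normalized within arrays and turned to sample over reference on the log2 scale. Spots marked as outliers were left out (2 among the 229 probes) and spots of a probe averaged. Probes well above background on both arrays of at least 1 group were kept (33099 of 42006). limma's lmFit with 18 group means and eBayes (18 residual and 5.05 prior degrees of freedom) was run, two-sided, with Benjamini-Hochberg adjustment over all kept probes within each comparison and calls at 0.05. Shares of the table refer to its 20183 kept probes. R 4.3.3 and limma 3.58.1 were used, and the fit was tested on simulated data. The members and lists were chosen with earlier results of these data known. Gene and marker lists could not be applied, since no probe has a symbol, so the labelled cell types were not checked against markers. In their place each comparison names up to 2 probes that rose and 2 that fell, those with the largest difference among called members, with exceptions said in the text. A group is not above background where neither array is; there a fold is a bound, the brighter group's mean sample signal (after loess and Aquantile, without dye swaps) over the dimmer group's mean of, per array, the higher of its own signal and the lowest signal well above background. Where the fold of the mean log2 ratios was lower, it was taken instead, a choice made after seeing the data.

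Alternatives were outlying backgrounds kept, no background subtraction, Feature Extraction's log10 ratio, the series table, no filter, only Tmx+ arrays, a block for the replicate number, a random block for the slide, and each array left out. Replicate numbers were not taken as pairs: over 153 pairs of groups the correlation of same-numbered deviations had a median of -0.001, and 35 exceeded 0.1. Between arrays the lowest correlation of log ratios was -0.104.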

Additional observations from a re-analysis of the deposited data

Results flagged for a closer look

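The doxycycline difference in Tmx+ cells changed between days 1 and 6 by the test of the interaction in limma. It was larger on day 6 at 137 probes and smaller at 40 of the 229 (59.8% and 17.5%, against 25.7% and 24% of the table). The values were 3.61 at Z00027747-1, 3.33 at Z00076148-1, -2.57 at Z00023582-1 and -2.55 at Z00013827-1 on the log2 scale. On Feature Extraction's ratio 67 probes gained and 34 lost (29.3% and 14.8%, against 22.4% and 23.6% of the table). There Z00076148-1 (0.64) and Z00013827-1 (-0.33) were not called. On the deposited table Z00013827-1 (-0.92) was not called either. Days 1 and 6 were scanned on different days, and the part of the scan day was not tested. Their arrays also lay on different slides, so slide and day cannot be told apart.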

How the results depend on the processing

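The counts of the 229 probes called by limma changed by less than 1.5 times in 236 of 257 comparisons with an alternative. The doxycycline counts in Tmx+ cells and those against Tmx+ primary MEFs kept between 225 and 229 probes without each array in turn (4464 to 7787 of the table). With Feature Extraction's ratio fewer rose and fell, day 6 against day 1 (87 and 22, against 28.7% and 30.6% of the table). The same held for day 3 against day 1 (105 and 7, against 25.5% and 27.7%) and day 6 against day 3 (24 and 44, against 19.8% and 20.8%). Fewer also gained in the interaction (67, against 22.4%), and more differed between Zscan4ERT2 and wild MEFs (36 and 28, against 12.6% and 13.1%). With the series table, 32 rose between days 3 and 6 (against 18.5% of the table) and 52 fell in uninduced cells (against 24%). The MEF counts there were 43 and 38 (against 17.9% and 13.8%). With outlying backgrounds kept, 19 fell in uninduced cells (4747 of the table's 20183 tested probes) and 14 were lower in iPS cells (701). The MEF counts were then 11 and 33 (2446 and 2526 of the table). Leaving out single arrays gave 1 to 4 higher and 21 to 29 lower in iPS cells (298 to 413 and 722 to 968 of the table). It gave 10 to 19 higher in Zscan4ERT2 MEFs (1379 to 1626 of the table). With all arrays the table had 636, 1312 and 2021 in the same order. Z00033363-1 reversed to 0.67 on Feature Extraction's ratio and to 0.67 on the series table. The cause was not tested.

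Of 491 values of named probes 477 kept direction and call, 12 kept direction but lost the call, of which 7 were Z00025206-1 in iPS against ES cells (0.17 to 0.80). Over all tested probes, 2688 differed between iPS and ES cells, against 1309 with outlying backgrounds kept, 1483 without iPS replicate 1, 1576 without iPS replicate 2 and 1376 without ES replicate 2. For the mean doxycycline effect 22538 were called, against 11363 with slide as a random block. The replicate block changed no count of the 229 by over 1.5 times, and 229 were called higher for doxycycline on day 1 (5130 of the table). With 2 arrays a group, and 84 to 104 of the probes below background in the uninduced or primary MEF group, the size of many rises is only bounded. With bounds on the sample channel alone, added after seeing the data, the medians over Dox-Tmx+ cells were 2.14, 3.06 and 2.76 on days 1, 3 and 6, against 2.13, 2.90 and 2.70.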
